A study of Mus musculus with 27 samples.

Results

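The genes described here build the peroxisome or carry out its lipid metabolism. The members were chosen by symbol, 40 in all, and 39 of them had a probe set annotated to their symbol alone, of 18781 genes measured. Acot8, a peroxisomal thioesterase, was not analysed here, since both of its 2 probe sets carried several symbols. By role, 13 members are peroxins, 6 are membrane proteins, 4 act in the core of β-oxidation, 6 in the breakdown of branched chains, 3 on double bonds, 4 on acyl groups and 3 in ether lipid synthesis, and 1 is catalase.

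Affymetrix Mouse Gene 1.1 ST arrays measured RNA of mature 3T3-L1 adipocytes, a single mouse preadipocyte line turned into fat cells in the dish. The 27 arrays formed 9 groups of 3. One group was untreated, at time 0. The other groups received 1 µM rosiglitazone, an agonist of the nuclear receptor PPARγ, dissolved in DMSO, for 8 exposure times: 30 min and then 1, 2, 6, 12, 24, 36 and 48 h. All groups had been differentiated with dexamethasone, insulin and 3-isobutyl-1-methylxanthine, then with insulin, then kept in growth medium, and the labels name no genetic change. None of the samples used here is labelled as given DMSO alone, so time in culture, vehicle and drug cannot be told apart, and all 8 times share the same untreated arrays. The labels do not say whether replicates were separate cultures, so the p-values reflect only how far these arrays scatter, and that scatter may be technical. In the deposited values the mean over the 9 groups was equal for replicates 1, 2 and 3 to rounding, as in Pex2. Differences by replicate number are thus missing from the scatter. The main fit does not allow for this, so its p-values are too small. With replicate number as a further term (the replicate block) 15 members rose at 48 h, against 17.

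Peroxisomes are organelles bounded by 1 membrane that break down very long and branched fatty acids, make the first steps of ether lipids and remove the hydrogen peroxide that their oxidases release. Peroxins insert the membrane proteins and import folded enzymes from the cytosol, while transporters of the ABCD family bring in acyl-CoA. Many enzymes of the pathway are textbook targets of the PPAR receptors, best known from PPARα in liver. Adipocytes also contain peroxisomes.

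Values are log2 intensities of a probe set, a change is a difference of group means on that log2 scale ± SE with n = 3 arrays per group, and a gene rose or fell where limma's adjusted p, corrected over all 18781 genes, was under 0.05. Levels of different genes were not ranked or tested against each other, and a low intensity is named only as near the low end of the scale. Array medians lay between 4.02 and 4.13, and the number of arrays limits the precision. The mean over 11 adipocyte markers was 10.77 to 10.89 on the untreated arrays and 10.60 to 10.77 at 48 h. Of the 11, 2 rose and 3 fell at 48 h, beside 12.6% and 11.4% of all genes. Over 8 measured preadipocyte or fibroblast markers the mean was 8.58 to 8.61 and 8.27 to 8.31, and 6 of the 8 fell at 48 h. Means over the markers of macrophages (3.64 to 3.80 untreated, 3.54 to 3.65 at 48 h), endothelial cells (2.97 to 3.12, 3.00 to 3.15) and hepatocytes (3.05 to 3.22, 3.18 to 3.26) lay near the low end of the scale. Adgre1 had a mean of 2.67, Kdr of 2.79 and Alb of 2.80. The macrophage markers Cd68 (4.97) and Lyz2 (4.34) and the hepatocyte marker Apoa1 (3.85) were higher, beside a median of 4.76 over all gene means. Of 6 macrophage markers 1 fell at 48 h, beside 11.4% of all genes. Of 3 measured hepatocyte markers 1 rose at 48 h, beside 12.6% of all genes, and of 4 endothelial markers 0 rose and 0 fell. No marker can be at 0 on this scale. In such bulk RNA, fewer cells of a type and less RNA per cell cannot be told apart. The part of these marker changes, the fibroblast markers' fall included, in the results below was not tested.

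More members rose than fell. At 48 h 17 of 39 rose and 4 fell, beside 12.6% and 11.4% of all genes. Over the course 28 of 39 were called at 1 time or more (71.8%, beside 39.9% of all genes). Of these, 22 were called only higher (56.4% of the members, beside 19.8% of all genes) and 4 only lower (10.3%, beside 18.8%), Abcd2, Pxmp2, Acox2 and Far1. Ehhadh and Acox3 were called in both directions (5.13%, beside 1.34%). By limma's moderated F-test over the 8 times, 29 of 39 members changed (74.4%), against 40.5% of all genes. A called change of at least 0.5 was reached by 10 members, and of at least 1 by 2, Acaa1b and Abcd2. The shares of all genes at these sizes were not counted, so these 2 counts have no reference.

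**Figure D1:**
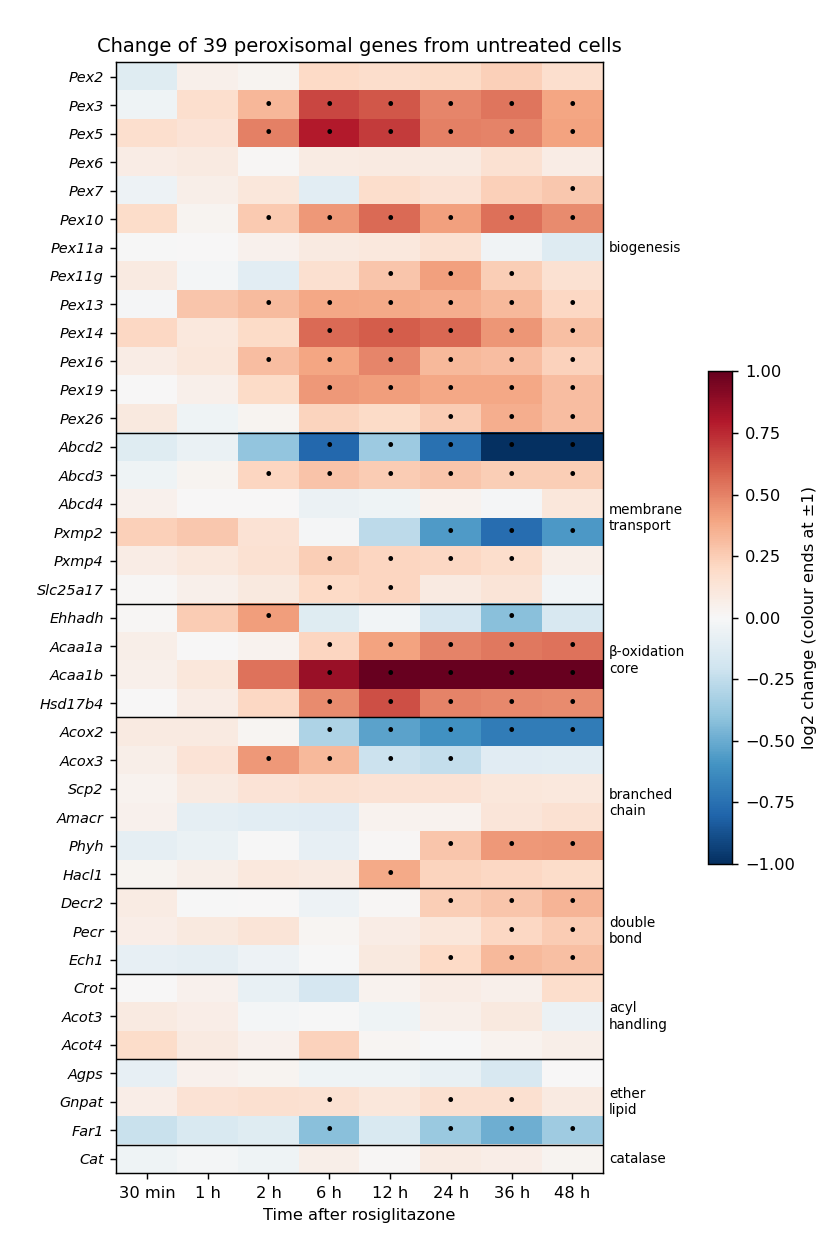
Log2 change from untreated cells (colour, ends at ±1) of the 39 measured members (rows, by role) at 8 times after rosiglitazone (columns); a dot marks a limma adjusted p under 0.05. Dots begin at 2 h, fill most rows of the peroxins from 6 h, and mark Acaa1b higher and Abcd2 lower at every time from 6 h.

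In the main fit the first calls of members came at 2 h, which does not date the start of their change. At 30 min limma called 0 members in either direction (3 higher and 0 lower at an unadjusted p under 0.05), with 0.0479% of all genes called higher and 0.0% lower. At 1 h it again called 0 (6 higher and 0 lower unadjusted), with 0.474% of genes higher and 0.516% lower. At 2 h 8 members rose and 0 fell (1 lower at an unadjusted p under 0.05), beside 3.04% and 2.87% of all genes. They were the peroxins Pex3, Pex5, Pex10, Pex13 and Pex16, the transporter Abcd3, and the oxidation enzymes Ehhadh and Acox3. The 2 h count was sensitive to single arrays. It was 2 without 2 h replicate 3 and 4 without untreated replicate 2, and Pex5 and Acox3 were the members that kept their 2 h call whichever array was left out.

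From 6 h the share of members that rose was above that of all genes, and the share that fell was close to that of all genes. At 6 h 15 of 39 rose (38.5%) and 3 fell (7.69%), beside 8.39% and 8.18% of all genes. At 12 h the counts were again 15 and 3, beside 9.48% and 9.38%. At 24 h 18 rose (46.2%) and 5 fell (12.8%), beside 10.1% and 10.5%. At 36 h 19 rose (48.7%) and 5 fell, beside 10.9% and 10.5%. At 48 h 43.6% rose and 10.3% fell, beside 12.6% and 11.4%. The median change of the 39 members was 0.16 (6 h), 0.21 (36 h) and 0.17 (48 h), and that of all genes -0.01, 0.01 and 0.01. Centring each array on its median raised the share of calls that were higher, among members at 6 h from 83.3% to 90.5% and at 48 h from 81.0% to 82.6%. Among all genes that share went from 50.6% to 76.5% and from 52.5% to 65.9%. The count of members that fell at 6 h was 1 without untreated replicate 1 or without 6 h replicate 2, and at 12 h 1 without untreated replicate 2.

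**Figure D2:**
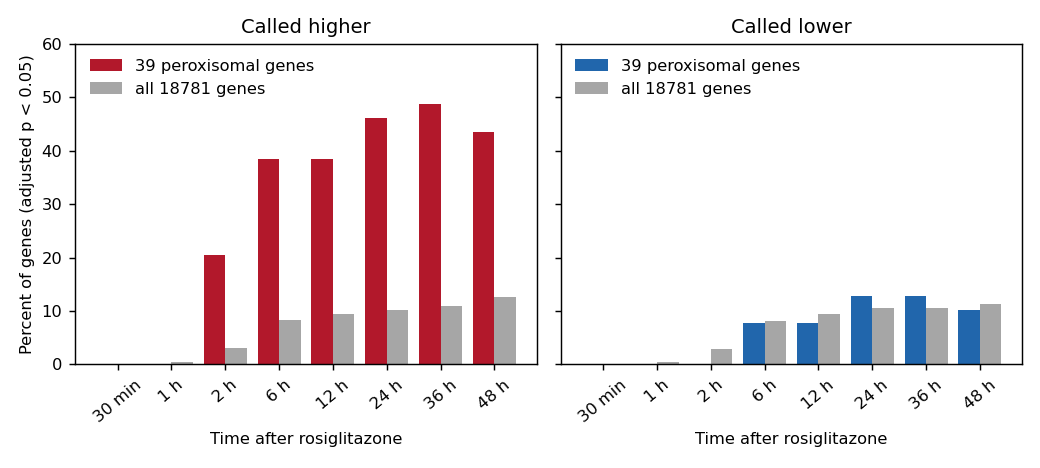
Percent of the 39 members (coloured bars) and of all 18781 genes (grey bars) called higher (left) or lower (right) than untreated at each time, by limma at an adjusted p under 0.05. From 6 h the members called higher make up 38.5% to 48.7%, against 8.39% to 12.6% of all genes, and those called lower 7.69% to 12.8%, against 8.18% to 11.4%.

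Of the 39 members, 11 were called higher at every time from 6 h to 48 h (28.2%, beside 3.34% of all genes), 7 of them peroxins. Abcd2 and Acox2 were called lower at every one of these times (5.13%, beside 3.43%). The 11 were 73.3% of the 15 members called higher at 6 h, and over all genes that share was 39.8%. Of the 8 that rose at 2 h, 6 were also called higher at 48 h (75.0%, beside 45.9% of all genes that rose at 2 h). Among the 22 called only higher, the largest change came at 6 h in 6 members and at 12 h in another 6, while 1 peaked at 24 h, 4 peaked at 36 h and the other 5 at 48 h.

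Of the 13 peroxins, 5 were called higher at 2 h, beside 3.04% of all genes. The count was 7 at 6 h (53.8%, beside 8.39%), 8 at 12 h (61.5%, beside 9.48%) and 9 at each later time (69.2%, beside 10.1% to 12.6%), and 0 fell against untreated at any time (0 also at an unadjusted p under 0.05 in limma). Their median change was 0.39 at 6 h and 0.27 at 48 h. Pex5, the receptor that carries enzymes with the common C-terminal targeting signal into the organelle, stood at 7.69, 7.70 and 7.74 on the untreated arrays and at 8.43, 8.58 and 8.50 at 6 h. By 48 h it was 8.20, 8.16 and 7.99. All 6 treated values lay above the untreated ones, and the 6 h values above those of 48 h. Its change was 0.50 ± 0.083 at 2 h (limma adjusted p = 0.000233), 0.79 ± 0.083 at 6 h (adjusted p = 2.95e-07), 1.73-fold, and 0.40 ± 0.083 at 48 h (adjusted p = 0.000641). From 6 h to 24 h it fell by 0.29 (adjusted p = 0.023), a call that ended without 6 h replicate 2 or 3 or 24 h replicate 2 or 3 (adjusted p 0.0554 to 0.111).

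Pex3, which anchors new membrane proteins in the peroxisomal membrane, was 9.15, 9.04 and 9.01 untreated, 9.62, 9.72 and 9.86 at 6 h, and 9.54, 9.43 and 9.40 at 48 h. The treated arrays lay above the untreated ones at both times. The change was 0.67 ± 0.077 at 6 h (limma adjusted p = 9.4e-07) and 0.39 ± 0.077 at 48 h, with an adjusted p of 0.000414. Its partner Pex19, the cytosolic receptor for membrane proteins, rose by 0.43 ± 0.069 at 6 h (adjusted p = 7.27e-05) and by 0.31 at 48 h. Pex16, which acts with them, rose by 0.49 ± 0.083 at 12 h (adjusted p = 0.000116). All members of this membrane-assembly trio were called from 6 h to 48 h, though the calls of Pex16 at 36 h (without 36 h replicate 1, adjusted p = 0.0904) and 48 h (without any of the untreated replicates or 48 h replicate 1, 0.0539 to 0.223) rested on single arrays.

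Pex14, part of the pore at which loaded Pex5 docks, was 7.98, 8.24 and 8.04 untreated, 8.66, 8.65 and 8.76 at 12 h, and 8.49, 8.30 and 8.37 at 48 h. Untreated replicate 2 was the highest of its group, and the treated arrays lay above it at both times. The change was 0.61 ± 0.093 at 12 h (limma adjusted p = 3.08e-05) and 0.30 ± 0.093 at 48 h, with an adjusted p of 0.0197, the latter lost without untreated replicate 1 or 3 or 48 h replicate 1 (0.0721 to 0.0964). Pex13, the other docking protein, rose by 0.39 ± 0.076 at 6 h (adjusted p = 0.000621) and by 0.21 at 48 h, with an adjusted p of 0.0457, where the call ended without untreated replicate 2 or 3 or 48 h replicate 1 or 2 (0.0782 to 0.220).

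Pex10, a ubiquitin ligase of the ring complex that recycles Pex5, was 8.44, 8.42 and 8.48 untreated, 8.96, 9.12 and 8.96 at 12 h, and 8.90, 8.88 and 8.98 at 48 h. No treated value at these times overlapped the untreated ones. The change was 0.57 ± 0.062 at 12 h (limma adjusted p = 3.65e-07) and 0.47 ± 0.062 at 48 h, with an adjusted p of 2.36e-06. Pex2, of the same ring complex, was called at no time, with a highest change of 0.24 ± 0.115 at 36 h (adjusted p = 0.152). Pex6, the ATPase that pulls Pex5 out of the membrane, was also called at no time, with changes of 0.01 to 0.15, while Pex26, which tethers it, rose by 0.36 ± 0.088 at 36 h (adjusted p = 0.00353). The calls of Pex26 at 24 h and 48 h ended without some single arrays (24 h, without untreated replicate 1 or 3 or 24 h replicate 1 or 3, 0.0947 to 0.172; 48 h, without untreated replicate 1 or 48 h replicate 3, 0.0638 to 0.0894).

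The remaining peroxins moved later or less. Pex11g, a membrane elongation and division factor, rose by 0.41 ± 0.075 at 24 h (limma adjusted p = 0.000181) and was 0.15 at 48 h (adjusted p = 0.15). Pex11a, its better known relative and a classical target of peroxisome proliferators in liver, was called at no time against untreated: the arrays were 10.33, 10.14 and 10.14 untreated, 10.39, 10.37 and 10.30 at 24 h and 10.08, 10.15 and 10.00 at 48 h. The untreated and treated arrays overlapped at both times. Between 24 h and 48 h Pex11a fell by 0.28 (adjusted p = 0.0344), a call that ended without any 24 h replicate or 48 h replicate 1 or 3 (0.0553 to 0.165). Pex7, the receptor for the second targeting signal, rose at 48 h by 0.27 ± 0.086 (adjusted p = 0.0221) and was called at no other time. This call ended without untreated replicate 2 or 3 or 48 h replicate 2 (0.0902 to 0.138).

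**Figure D3:**
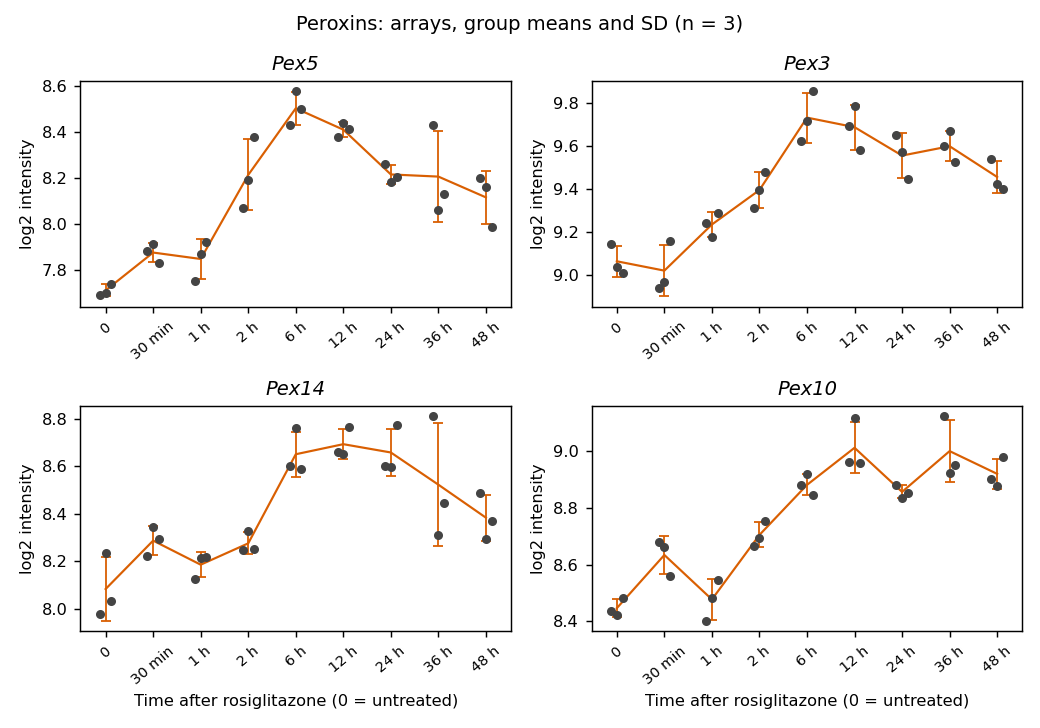
Log2 intensity of Pex5, Pex3, Pex14 and Pex10 on each array (points) against time after rosiglitazone, with the mean and SD of each group of 3 (line and bars). Pex5 goes from 7.69 to 7.74 untreated to 8.43 to 8.58 at 6 h and stands at 7.99 to 8.20 at 48 h.

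The enzymes of the β-oxidation core did not move as 1 group. Acaa1b, a peroxisomal 3-ketoacyl-CoA thiolase that carries out the last step of the cycle, had the largest change of the members. It was 5.11, 4.98 and 5.21 untreated, 6.31, 6.30 and 6.30 at 12 h, 7.08, 7.19 and 6.82 at 24 h, 7.79, 7.65 and 7.74 at 36 h and 8.11, 7.91 and 7.14 at 48 h. At 2 h, where it was not called, the arrays were 5.66, 5.55 and 5.71. From 2 h every treated array lay above every untreated one, and 48 h replicate 3 was the lowest of its group. The change was 0.86 ± 0.20 at 6 h (limma adjusted p = 0.00334), 1.93 ± 0.20 at 24 h (adjusted p = 8.46e-08) and 2.62 ± 0.20 at 48 h, 6.14-fold, with an adjusted p of 3.7e-10. From 6 h to 24 h it rose by 1.07 ± 0.20 (adjusted p = 0.000644). From 24 h to 48 h the change was 0.69 ± 0.20 (adjusted p = 0.0874), and 0.98 without 48 h replicate 3 (adjusted p = 0.0109).

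Acaa1a, the other copy of the thiolase, was 7.65, 7.56 and 7.52 untreated, 7.88, 8.01 and 8.06 at 12 h and 7.96, 8.22 and 8.19 at 48 h. Its treated arrays did not overlap the untreated ones at either time. The change was 0.54 ± 0.072 at 48 h (limma adjusted p = 2.35e-06). The call at 6 h, 0.22 (adjusted p = 0.037), ended without untreated replicate 2 or 3 or 6 h replicate 1 or 2 (0.0696 to 0.192), and the rise from 6 h to 24 h, 0.28 (adjusted p = 0.0108), without 6 h replicate 3 or 24 h replicate 1 (0.0649 to 0.0673). The 2 genes are close copies, and whether the probes of one read RNA of the other was not tested, so their changes are uncertain as separate values.

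Hsd17b4, the bifunctional enzyme that acts on straight and branched chains, rose at every time from 6 h. It was 8.54, 8.62 and 8.65 untreated, 9.27, 9.28 and 9.21 at 12 h and 9.23, 8.98 and 9.02 at 48 h. The treated arrays lay above all untreated ones at both times. The change was 0.65 ± 0.072 at 12 h (limma adjusted p = 4.02e-07) and 0.47 ± 0.072 at 48 h, with an adjusted p of 1.84e-05. Ehhadh, the other bifunctional enzyme and a classical PPARα target in liver, went both ways. It was 5.26, 5.39 and 5.05 untreated, 5.70, 5.48 and 5.77 at 2 h, 4.83, 4.83 and 4.78 at 36 h and 5.34, 4.70 and 5.17 at 48 h, where the groups overlapped. It rose at 2 h by 0.42 ± 0.12 (adjusted p = 0.0368) and fell at 36 h by 0.42 (adjusted p = 0.0125). The first call ended without untreated replicate 1 or 3 or 2 h replicate 1 or 3 (0.0797 to 0.205), and the second without untreated replicate 2 (0.0805).

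**Figure D4:**
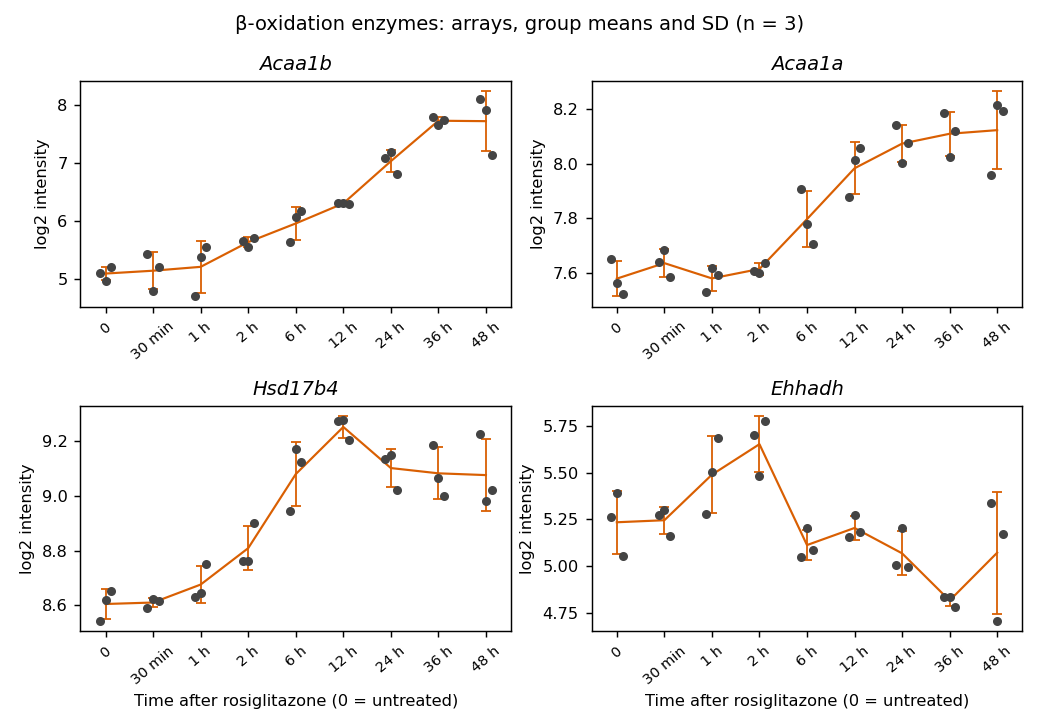
Log2 intensity of the β-oxidation enzymes Acaa1b, Acaa1a, Hsd17b4 and Ehhadh on each array (points) against time after rosiglitazone, with the mean and SD of each group of 3 (line and bars); the vertical scales differ. Acaa1b climbs to 7.65 to 7.79 at 36 h, Hsd17b4 is highest at 12 h (9.21 to 9.28), and Ehhadh is highest at 2 h and lowest at 36 h.

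The enzymes for branched chains divided. Acox2, the oxidase for branched-chain acyl-CoA and bile acid intermediates, fell. It was 7.70, 7.70 and 7.73 untreated, 7.04, 7.13 and 7.35 at 12 h and 6.83, 7.20 and 7.00 at 48 h. Every treated array at these times was below the untreated ones. It fell by 0.54 at 12 h (limma adjusted p = 0.00041) and by 0.70 at 48 h, with an adjusted p of 1.09e-05. The first call, at 6 h (-0.31, adjusted p = 0.0376), ended without any untreated replicate or 6 h replicate 2 or 3 (0.0794 to 0.271).

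Acox3, a second branched-chain oxidase, was 8.46, 8.49 and 8.44 untreated, 8.98, 8.87 and 8.84 at 2 h, 8.81, 8.85 and 8.69 at 6 h and 8.23, 8.26 and 8.19 at 24 h. The arrays of 2 h and 6 h lay above the untreated ones and those of 24 h below. Its change was 0.43 ± 0.063 at 2 h (limma adjusted p = 4.87e-05), 0.32 at 6 h, -0.22 at 12 h (adjusted p = 0.0156) and -0.24 ± 0.063 at 24 h, with an adjusted p of 0.00744, and it fell by 0.56 from 6 h to 24 h (adjusted p = 1.07e-06). The 12 h call ended without untreated replicate 2 or 12 h replicate 2 (0.0588 to 0.0808). Acox3 was the member with 2 probe sets of its own, and with their mean in place of the brighter one all 4 calls against untreated ended (2 h 0.24, adjusted p = 0.0899; 6 h 0.22, 0.059; 12 h -0.08, 0.573; 24 h -0.06, 0.673), while the fall from 6 h to 24 h stayed called (-0.29, adjusted p = 0.0183).

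Phyh, the hydroxylase that starts α-oxidation of phytanic acid, rose late. It was 8.03, 7.97 and 7.97 untreated, 7.90, 7.84 and 7.99 at 6 h and 8.44, 8.48 and 8.37 at 48 h. The arrays overlapped at 6 h and not at 48 h. The change was 0.27 ± 0.061 at 24 h (limma adjusted p = 0.00165) and 0.44 ± 0.061 at 48 h, with an adjusted p of 5.43e-06. Hacl1, the lyase of the same pathway, rose at 12 h by 0.38 ± 0.095 (adjusted p = 0.00559) and was called at no other time. Amacr, the racemase of branched acyl-CoA, was called by the F-test (adjusted p = 0.00804) and at no single time, with changes of -0.11 to 0.16. Scp2, the thiolase and sterol carrier, was called by neither (0.04 to 0.16).

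The 3 members that handle double bonds rose late as well. At 48 h Decr2, the peroxisomal dienoyl-CoA reductase, had risen by 0.34 ± 0.068 (limma adjusted p = 0.000523). Ech1, a dienoyl-CoA isomerase of peroxisomes and mitochondria, had risen by 0.30 ± 0.070 (adjusted p = 0.00183), and Pecr, the trans-2-enoyl-CoA reductase, by 0.25 ± 0.064 (adjusted p = 0.00414). At 6 h none of these 3 was called, with changes between -0.05 and 0.02. The 24 h calls of Decr2 (without 24 h replicate 3, adjusted p = 0.0537) and Ech1 (without untreated replicate 1 or 2 or any 24 h replicate, 0.0551 to 0.168) and the 36 h call of Pecr (without untreated replicate 2 or 36 h replicate 3, 0.0993 to 0.129) rested on single arrays.

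The membrane proteins held both directions. Abcd2, the transporter of very long and polyunsaturated acyl-CoA known to be abundant in fat tissue, fell. It was 7.90, 7.91 and 7.85 untreated, 6.80, 7.33 and 7.18 at 6 h, 7.44, 7.76 and 7.36 at 12 h, 6.87, 6.96 and 6.75 at 36 h and 7.10, 6.56 and 6.95 at 48 h. All these treated arrays lay below the untreated ones, with those of 12 h nearest to them. At 2 h the arrays of Abcd2 (7.54, 7.42 and 7.52) also lay below the untreated ones. It was not called there, though lower at an unadjusted p under 0.05 in limma. It fell by 0.79 at 6 h (limma adjusted p = 8.12e-05). At 24 h the change was -0.75 (adjusted p = 8.61e-05). By 48 h Abcd2 fell by 1.02 (SE 0.13, adjusted p = 1.06e-06), 2.03-fold lower. The 12 h call (-0.37, adjusted p = 0.045) ended without any untreated replicate or 12 h replicate 1 or 3 (0.0814 to 0.185).

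Abcd3, the transporter of branched and dicarboxylic acyl-CoA, rose by 0.28 ± 0.062 at 6 h (limma adjusted p = 0.00184) and was called at every time from 2 h, with changes of 0.21 to 0.28. Its 2 h call ended without untreated replicate 2 or 3 or any 2 h replicate (0.0572 to 0.189). Abcd4, a relative now known for lysosomal cobalamin transport, was called at no time (-0.06 to 0.11).

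Pxmp2, a channel protein of the peroxisomal membrane, fell late. It was 5.74, 5.47 and 5.36 untreated, 5.47, 5.68 and 5.37 at 6 h, 4.74, 4.81 and 4.74 at 36 h and 4.93, 4.76 and 5.16 at 48 h. The arrays overlapped at 6 h, and those of 36 h and 48 h lay below the untreated ones. It fell by 0.76 at 36 h (limma adjusted p = 1.93e-06) and by 0.57 at 48 h, with an adjusted p of 7.96e-05, and by 0.55 from 6 h to 24 h (adjusted p = 0.000386). Pxmp4, another protein of that membrane, rose by 0.25 ± 0.060 at 6 h (adjusted p = 0.00403) and was 0.06 at 48 h (adjusted p = 0.529). Its calls at 12 h, 24 h and 36 h each ended without untreated replicate 3 (12 h, adjusted p = 0.0672), the 24 h call also without 24 h replicate 2 or 3 (0.0564 to 0.0777), and the 36 h call also without untreated replicate 2 or 36 h replicate 1 or 3 (0.0554 to 0.167). Slc25a17, the peroxisomal carrier of adenine nucleotides and CoA, rose by 0.21 ± 0.058 at 12 h (adjusted p = 0.00964) and was -0.03 at 48 h.

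**Figure D5:**
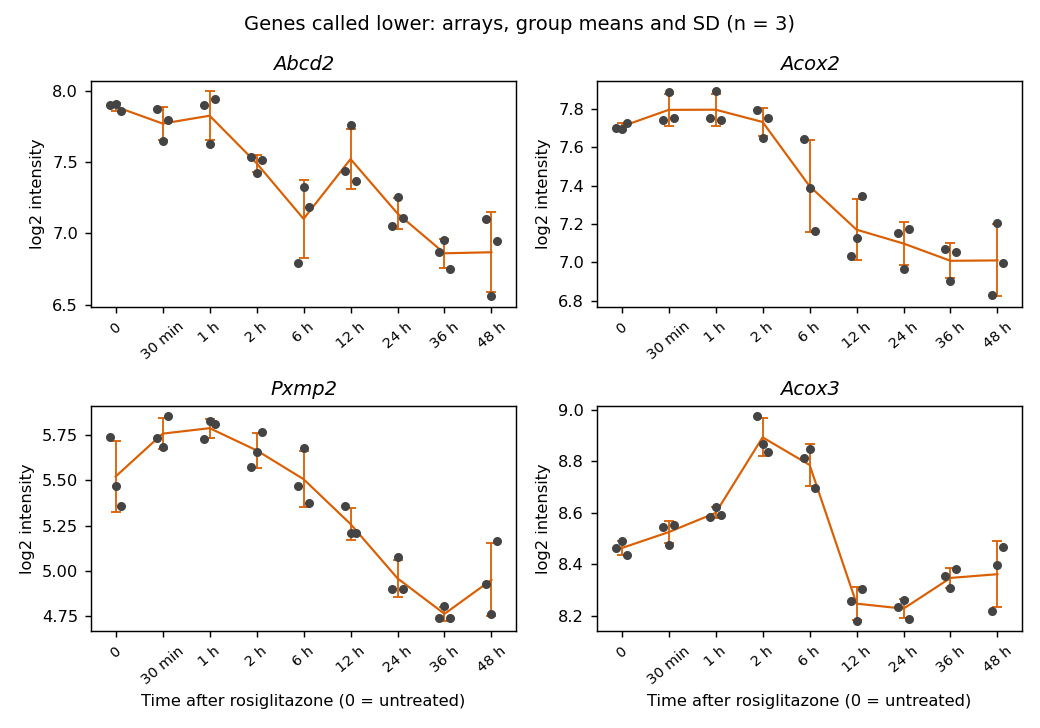
Log2 intensity of Abcd2, Acox2, Pxmp2 and Acox3 on each array (points) against time after rosiglitazone, with the mean and SD of each group of 3 (line and bars); the vertical scales differ. Abcd2 (6.56 to 7.10) and Acox2 (6.83 to 7.20) end below all their untreated arrays. Acox3 is above its untreated arrays at 1 h, 2 h and 6 h and below them at 12 h, 24 h and 36 h. Its calls were at 2 h, 6 h, 12 h and 24 h, and this holds for the brighter of its 2 probe sets.

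Ether lipid synthesis showed no common direction. Far1, the reductase that supplies its fatty alcohol and limits plasmalogen synthesis, was 7.87, 7.62 and 7.69 untreated, 6.83, 7.51 and 7.37 at 36 h and 7.21, 7.46 and 7.44 at 48 h. The treated arrays lay below the untreated ones at both times, and 36 h replicate 1 was the lowest. It fell by 0.49 at 36 h (limma adjusted p = 0.00442) and by 0.35 at 48 h, with an adjusted p of 0.0363. Without 36 h replicate 1 the 36 h change was -0.29 (adjusted p = 0.0522), and the calls at 6 h (without untreated replicate 1 or 6 h replicate 2, 0.0821 to 0.0994), 24 h (without untreated replicate 1 or 3 or 24 h replicate 2 or 3, 0.0589 to 0.150) and 48 h (without untreated replicate 1 or 3 or 48 h replicate 1, 0.0635 to 0.166) rested on single arrays as well. Gnpat, the acyltransferase of the first step, was called higher at 6 h, 24 h and 36 h with changes of 0.16 (adjusted p = 0.0418, 0.0344 and 0.0292), not by the F-test (adjusted p = 0.121). Each of these calls ended without any 1 untreated replicate, and also without any 6 h replicate (6 h), 24 h replicate 2 or 3 (24 h) or 36 h replicate 1 or 2 (36 h), with adjusted p of 0.0532 to 0.143. Agps, which makes the ether bond, was called at no time (-0.16 to 0.04).

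Catalase and the acyl-handling enzymes were not called. Cat, which breaks down hydrogen peroxide, was 11.31, 11.06 and 11.21 untreated and 11.29, 11.22 and 11.15 at 48 h, with changes of -0.04 to 0.08 over the 8 times. The groups overlapped, and with an SE of 0.062 a small change could not be detected. Crot, the carnitine transferase that exports shortened chains, was 0.18 ± 0.082 at 48 h (limma adjusted p = 0.13). The thioesterases Acot3 and Acot4 had mean intensities of 2.72 and 3.02, near the low end of the scale.

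The late comparisons bear on whether members went on changing. From 6 h to 24 h 5 members rose (Acaa1b, Acaa1a, Phyh, Decr2 and Pex11g) and 3 fell (Acox3, Pxmp2 and Pex5), beside 5.51% and 6.02% of all genes. Without 24 h replicate 1, 3 rose. The call of Pex11g (0.25, adjusted p = 0.0288) ended without 6 h replicate 1 or 2 or 24 h replicate 1 or 2 (0.0714 to 0.122). From 24 h to 48 h limma called 0 members higher (4 at an unadjusted p under 0.05) and 1, Pex11a, lower (6 unadjusted), beside 0.713% and 0.745% of all genes. The times 24 h and 48 h were also set together against 12 h and 36 h, to look for alternation between exposure times 12 h apart. In that contrast limma called 0 members (3 higher and 5 lower at an unadjusted p under 0.05), beside 1.05% of genes higher and 1.24% lower, and 1 higher without 48 h replicate 3 or 1 lower without 36 h replicate 3.

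A list of 65 other genes of peroxisomal processes, which excludes the members, had 52 measured. At 6 h 14 rose (26.9%, beside 8.39% of all genes) and 5 fell (9.62%, beside 8.18%). At 12 h 17 rose (32.7%, beside 9.48%) and 10 fell (19.2%, beside 9.38%). At 24 h 16 rose (30.8%, beside 10.1%) and 9 fell (17.3%, beside 10.5%). At 48 h 13 rose (25.0%, beside 12.6%) and 7 fell (13.5%, beside 11.4%), with a median change of 0.12. The share that fell was thus near that of all genes at 6 h and 48 h, and above it at 12 h and 24 h. Ephx2, the epoxide hydrolase, rose by 1.15 ± 0.062 at 48 h (limma adjusted p = 1.05e-12). Mlycd, malonyl-CoA decarboxylase, rose by 0.65 ± 0.105, Nudt7, a hydrolase of CoA, by 0.65 ± 0.099, and Nudt12, a hydrolase of NADH, by 0.61 ± 0.112. The largest falls were in Pipox, which oxidises pipecolic acid and sarcosine (-0.90 ± 0.136), Xdh, xanthine dehydrogenase (-0.81 ± 0.093), Gstk1, a glutathione transferase (-0.42 ± 0.069), and Tmem189, which makes the plasmalogen double bond (-0.28 ± 0.068).

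Mitochondrial β-oxidation genes and the receptors give the surroundings of these changes. Of 16 measured mitochondrial genes, 6 rose at 6 h (37.5%, beside 8.39% of all genes), 13 both at 12 h and at 24 h (81.2%, beside 9.48% and 10.1%) and 12 at 48 h (75.0%, beside 12.6%), and 1, Cpt1a, fell at 48 h (-0.38 ± 0.125, limma adjusted p = 0.0279). Hadhb, the thiolase subunit of the trifunctional protein, rose by 0.77 ± 0.073 at 48 h. Ppara, the receptor for peroxisome proliferators, rose by 0.66 ± 0.155 at 24 h (adjusted p = 0.00271) and by 1.01 ± 0.155 at 48 h, with an adjusted p of 2.13e-05, while Pparg, the drug's own target, fell by 0.30 at 48 h (adjusted p = 5.55e-05). The coactivators Ppargc1a and Ppargc1b were 0.93 ± 0.136 and 0.70 ± 0.085 higher at 48 h. Of the 6 receptors and coactivators listed, 3 rose and 3 fell at 48 h, beside 12.6% and 11.4% of all genes. The 3 that fell were Pparg, Ppard and Rxra. Whether these changes bear on those of the members was not tested.

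PPAR receptors bind DNA with RXR at a pair of AGGTCA half-sites that follow each other with 1 base between them, so the start sites of the members were searched for these letters. RefSeq promoter windows of GRCm38.p6, 250 bases before to 50 after a start site, were given for 33 of the 40 members (39 windows), not for Pex2, Pex19, Abcd2, Abcd4, Pxmp2, Hsd17b4 and Amacr. On either strand, 0 member windows held the exact pair, against 13 of 32851 windows in all. Allowing 2 mismatches in the 12 fixed bases, 3 members had a match (9.09%), against 1190 of 27025 genes (4.40%). The matches, and the nearest stretches of the thiolases Acaa1b and Acaa1a with more mismatches, follow 5′ to 3′ on the gene's strand, with the 13 bases compared in capitals.
Acot4 (2 mismatches, reverse orientation, chr12:84038360-84038384, plus strand): gaagcaTGACCTTTGGCCGgtctgt
Acox2 (2 mismatches, chr14:8258812-8258836, minus strand): tgtcccAGGACAGAGGTGAgtcaag
Cat (2 mismatches, chr2:103485339-103485363, minus strand): tctcagAGGTCAGAGAACAccagca
Acaa1b (4 mismatches, reverse orientation, chr9:119157258-119157282, minus strand): ccagatTGGCCTTGAACTTgcgcag
Acaa1a (5 mismatches, chr9:119341044-119341065, plus strand): cttGAGGCTGAGTTCAtcctag
The first of these bases lies at -13 from the start site in Acot4, at 10 in Acox2, at -204 in Cat, at -183 in Acaa1b and at -247 in Acaa1a. Of the genes with a match, Acox2 fell, and Cat and Acot4 were not called. A match is a likeness of letters and no measured site, and elements outside these windows were not searched.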

How the data were processed

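Per the submitters' processing notes, the authors used RMA (background correction, normalisation between arrays and summary of probes) and Partek. Versions and settings were not given in the sources used here. In Pex2, Pex5 and Cat the mean over the 9 groups was equal for replicates 1, 2 and 3 to rounding. The RMA steps named do not give such equality, so differences by replicate number had been taken out before deposit. The agreement of the arrays within a group is therefore not that of plain RMA values. The deposited values are log2 intensities of 28815 probe sets on 27 arrays. Of these, 21153 carried 1 gene symbol, 1867 several and 5795 none. Of several sets for a gene, the brightest on average was used, giving 18781 genes. No dim gene was removed.

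Group means were fitted over all 27 arrays with limma 3.58.1 in R 4.3.3 (lmFit, eBayes), two-sided, with Benjamini-Hochberg adjustment over all genes and calls at an adjusted p under 0.05. The procedure was tested on simulated data. Tables and plots used Python 3.11.15, pandas 2.3.3, numpy 2.4.6 and matplotlib 3.10.9. Every array is shown for members with a called change of at least 0.5 and for others chosen after their values were seen, and all measured members are named, more per role than the 1 to 3 examples first planned. Of other peroxisomal genes the 4 highest and 4 lowest called at 48 h are named. The receptors and coactivators, Hadhb and Cpt1a were named after their values were seen. The members and lists were chosen with earlier results of these data known.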

Additional observations from a re-analysis of the deposited data

How the results depend on the processing

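Under the alternatives run, 0 called changes of a member reversed, and at each time from 2 h to 48 h more members rose than fell. From 24 h to 48 h the counts turned from 0 risen and 1 fallen to 1 risen (Acaa1b) and 0 fallen without 48 h replicate 3. With genes above the median mean alone, 1 member rose at 1 h, 1 fell at 2 h, 8 rose from 6 h to 24 h, 2 fell from 24 h to 48 h and 1 was lower at 24 h and 48 h than at 12 h and 36 h. The last count was also 1 with a trended and robust variance. With each array centred on its median, 1 fell at 12 h and 3 at 24 h. With only the arrays of the groups compared, 1 fell at 2 h. The fall from 24 h to 48 h was called in 0 members with a further quantile normalization, with only the groups compared and with the replicate block. Whether replicate numbers paired the arrays cannot be told from these values. Since differences by replicate number had been taken out of them, deviations of same-numbered arrays had to correlate below 0 on average. They correlated at -0.45 to 0.14, 3 of 108 pairs above 0.1, and 0 of 27 arrays correlated best with their own number. With the replicate block the members called higher were 6 (2 h), 13 (6 h), 15 (12 h), 15 (24 h), 17 (36 h) and 15 (48 h), and 26 changed by the F-test.

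Leaving out replicates or single arrays gave 2 to 7 members risen (2 h), 7 to 14 (6 h), 9 to 16 (12 h), 11 to 16 (24 h), 12 to 19 (36 h) and 11 to 17 (48 h). It gave 1 to 3 members fallen both at 6 h and at 12 h, 3 to 5 fallen (24 h) and 3 to 6 fallen (36 h). From 6 h to 24 h 2 to 6 rose. From 24 h to 48 h 0 to 1 rose and 0 to 1 fell, and in the alternation contrast 0 to 1 were higher and 0 to 1 lower. Of 121 called changes, 84 held without any 1 array and 37 did not.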
